A study of Mus musculus with 16 samples.

Results

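Potassium channel genes were taken as all genes on the array whose symbol in the platform annotation starts with Kcn. They numbered 90 of 19505 genes measured, each with 1 probe. By symbol they fall into 36 voltage-gated alpha subunits, 17 accessory subunits, 7 alpha subunits named Kcnn, Kcnt or Kcnu, 15 inward rectifiers, 14 two-pore-domain channels and the non-coding transcript Kcnq1ot1. The Kcnn, Kcnt and Kcnu genes are called calcium- or sodium-activated below, a grouping by symbol that does not state the gating of each member, such as Kcnu1.

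Potassium channels let potassium leave the cell and so set its resting potential and end its electrical responses. Alpha subunits line the pore, and accessory subunits change how the pore opens, closes or reaches the membrane. In an olfactory sensory neuron, odor binding opens cyclic nucleotide-gated and then chloride channels in the cilia, the resulting depolarization triggers action potentials, and voltage-gated and calcium-activated potassium channels repolarize the cell. Two-pore-domain channels and inward rectifiers carry leak currents in neurons and also serve potassium transport in epithelia.

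The series used mice of the S100a5-tauGFP line. S100a5 is a gene whose transcription follows sensory activity, and its promoter drives a green fluorescent protein (GFP) in olfactory sensory neurons. In this so-called Kentucky assay, cells of active and less active neurons are separated by sorting after the animals have smelled an odor. Here 24 mice of both sexes, aged 7 to 12 weeks, spent 40 h singly in clean-air chambers at 3.1 L/min, and from hour 26 on they received a 10-s pulse every 20 min. Arrays were hybridized with RNA of 50 to 100 ng per sample, and each sample came from the sorted cells of 3 pooled mice.

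All 4 groups came from this S100a5-tauGFP line, so even the air-exposed animals carried the reporter. The groups were GFP+ cells of odor-exposed mice, GFP- cells of the same mice, GFP+ cells of vehicle mice given filtered air and GFP- cells of the same vehicle mice, with 4 pools in each. The odor is labelled indole/ionone. The sources used here give neither the isomer nor the dose, nor whether both odorants were mixed. The reporter marks neurons by their recent activity and tells nothing of which odor caused it, and GFP- cells comprise every dissociated cell of the mucosa without visible reporter.

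The labels of the fractions were checked against marker genes. S100a5 lay at log2 levels of 16.04 to 16.50 in GFP+ samples, against 14.35 to 15.31 in GFP- samples. Omp, the marker of mature sensory neurons, lay at 18.46 to 18.51 in GFP+ samples, against 18.11 to 18.51 in GFP- samples. It differed by 0.07 ± 0.09 (SE) on the log2 scale (limma, adjusted p = 0.56). Whether so bright a probe could still register a difference was not tested. Omp was therefore not read as a measure of the share of mature neurons. Many markers of other cells were lower in GFP+ cells, beside 13.9% of all genes. All 10 neutrophil genes measured, with a median log2 difference of -8.79, and all 10 genes of microvillar and brush cells, with a median of -2.85, fell past the threshold. So did 8 of 8 lymphocyte, 8 of 9 macrophage, 3 of 3 erythroid, 7 of 10 sustentacular, 7 of 8 globose basal and dividing-cell and 5 of 9 immature-neuron genes. Higher were 4 of 5 ciliated-cell genes and 1 of 10 mature-neuron genes, Ano2, beside 18.3% of all genes. Lower markers were fewer for endothelial cells and pericytes (3 of 8), ensheathing glia (2 of 6), stromal cells (1 of 5) and horizontal basal cells (1 of 6). Few genes of these lists were above background, as defined below, in either fraction. In each of the 4 groups these were 1 of 8, 2 of 6, 1 of 5 and 0 of 6, in the same order. A decrease could therefore be missed in these lists. In bulk samples of this kind, fewer cells of a type and less RNA per cell cannot be told apart. The GFP- sample of odor replicate 3 stood apart from the others on the second principal component of all genes, at 58.87 against 24.58 in the next sample.

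Of the 90 potassium channel genes, 24 lay above background in all 4 groups. A gene was called above background in a group where its mean log2 level exceeded the highest median of the 23 antigenomic background probes on that group's arrays, and these medians ran from 5.63 to 6.05. In at least 1 group 27 genes, or 30%, were above background, compared with 59.3% of all genes. The other 63 lay below it in every group, so that small differences among them were read at the low end of the scale. Voltage-gated alpha subunits held 11 of the 24 genes, accessory subunits 6, calcium- or sodium-activated alpha subunits 3, inward rectifiers 2 and two-pore-domain channels 2. Levels of different probes are not comparable as transcript amounts, so probe signal served to choose which bright genes are named and no order of abundance is drawn from it.

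**Figure D1:**
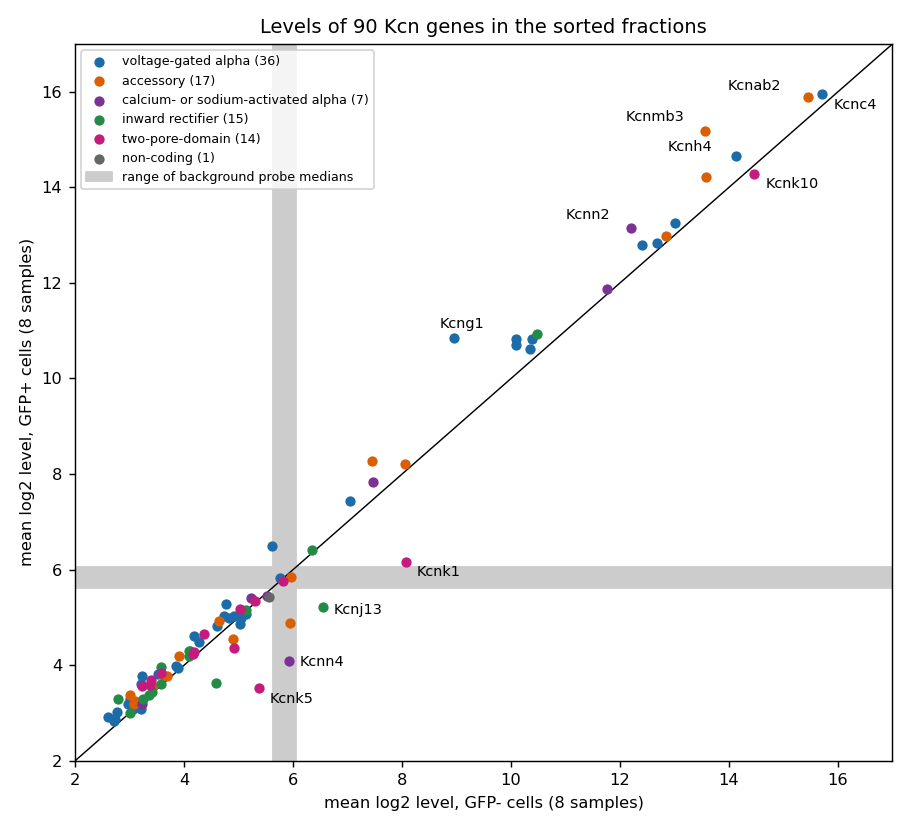
Mean log2 level of each of the 90 potassium channel genes in the 8 GFP+ samples (vertical axis) against the 8 GFP- samples (horizontal axis), coloured by subfamily, with the line of equal levels and a grey band for the range of background probe medians. Most genes lie inside or below the band, Kcng1 and Kcnmb3 lie well above the line, and Kcnk1, Kcnj13, Kcnn4 and Kcnk5 lie below it.

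The first question the design allows is how cells with the activity reporter differ from the remaining cells of the same mice. The GFP+ minus GFP- difference was therefore taken within each of the 8 pools and averaged over both arms. Among voltage-gated alpha subunits, 15 were higher in GFP+ cells and 0 lower, where 18.3% of all genes were higher and 13.9% lower. Of the 15, Kcnh5, Kcnh6, Kcnd1, Kcnv1, Kcnc1 and Kcng3 lay under background in all 4 groups. The calls of Kcnd1, Kcnv1, Kcnc1, Kcng3, Kcnh7, Kcna2 and Kcnq1 were lost in some other settings. Accessory subunits had 4 higher and 1 lower, inward rectifiers 2 higher and 2 lower, calcium- or sodium-activated subunits 1 higher and 1 lower, and two-pore-domain channels 1 higher and 3 lower. The largest increases were those of the modifier subunit Kcng1 (1.89 ± 0.10, SE) and the BK-channel accessory subunit Kcnmb3 (1.60 ± 0.17), and the largest decreases those of Kcnk1 (-1.89 ± 0.22), Kcnk5 (-1.86 ± 0.19) and Kcnn4 (-1.83 ± 0.18). The group means of Kcnk5 and Kcnn4 lay under background in all 4 groups, so the sizes of their decreases are measured at the low end of the scale.

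In all, 23 of the 90 genes were higher and 7 lower in GFP+ cells at an adjusted p under 0.05 (limma, Benjamini-Hochberg over all genes). That makes 33.3%, beside 32.2% of all genes, so the share of changed potassium channel genes was near the background. Of all genes, 18.3% were higher and 13.9% lower. The median log2 difference was 0.17 over the 90 genes and 0.12 over all genes. The number of higher genes depended on how arrays were scaled. With each array centred on its median, the median of all genes was 0.31, the median of the potassium channel genes 0.36, and 57 of them were higher and 7 lower. Among all genes called, 81.6% were then higher, against 56.8% with the values as deposited.

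**Figure D2:**
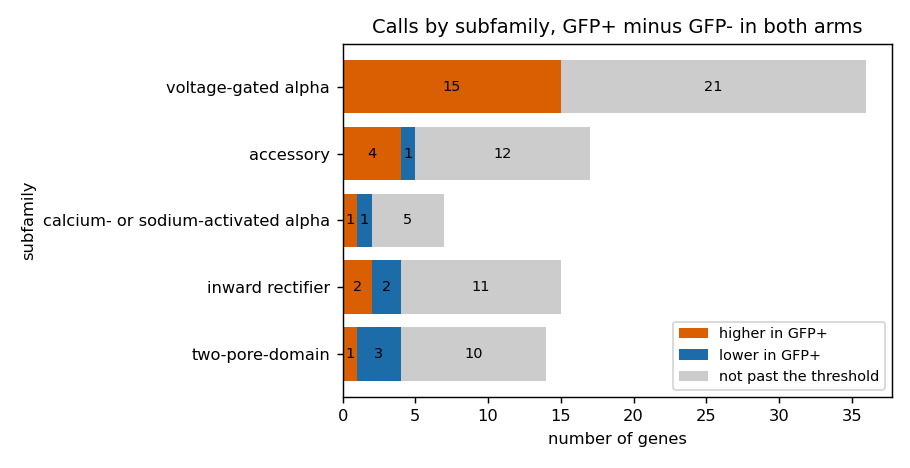
Number of potassium channel genes in each subfamily that were higher in GFP+ cells (orange), lower in GFP+ cells (blue) or not past the threshold (grey), for the difference within pools averaged over both arms. Of the 36 voltage-gated alpha subunits 15 were higher and 0 lower, and of the 14 two-pore-domain genes 1 was higher and 3 were lower. Of all genes, 18.3% were higher and 13.9% lower.

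Among the voltage-gated alpha subunits, the median difference was 0.24. Over both arms 15 of 36 genes, 41.7%, passed the threshold, beside 32.2% of all genes. Taken arm by arm, 13.9% passed in odor pools, beside 18.6% of all genes, and 22.2% in vehicle pools, beside 19.7% of all genes. Kcng1 encodes an electrically silent subunit that forms no channel alone and modifies the gating of delayed rectifiers of the Kcnb family. Its log2 levels were 11.90, 10.61, 11.44 and 11.95 in GFP+ cells of odor pools, against 10.16, 8.98, 9.26 and 10.12 in GFP- cells of the same pools. In vehicle pools they were 10.70, 10.48, 9.82 and 9.80 in GFP+ cells, against 8.74, 8.23, 8.06 and 8.05 in GFP- cells. The GFP+ sample was the higher in every one of the 8 pools, by 1.63 to 2.25, although the ranges of the fractions overlapped across arms. The mean difference corresponds to a fold of 3.70 (limma, adjusted p = 5.48e-08). Kcnb2, a delayed rectifier of the family that such subunits join, was named for that role after its values were seen. It averaged 5.83 ± 0.43 in GFP+ cells and 5.76 ± 0.36 in GFP- cells (SD, n = 8 each), under background in all 4 groups, with a difference of 0.06 ± 0.18 (SE).

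The low-threshold delayed rectifiers of the Kcna family, which limit repetitive firing, varied among themselves. Kcna1 lay at 6.29, 6.75, 6.35 and 6.64 in GFP+ cells of odor pools, against 6.04, 5.94, 5.56 and 5.40 in GFP- cells. In vehicle pools it lay at 6.14, 6.53, 6.74 and 6.46 in GFP+ cells, against 5.14, 5.46, 5.81 and 5.50 in GFP- cells. No GFP+ sample was as low as any GFP- sample, and the group means were above background only in GFP+ cells. The difference was 0.88 ± 0.11 (SE, limma, adjusted p = 8.06e-05). Kcna6 was higher by 0.72 ± 0.16 (adjusted p = 0.00515), with the pool differences running from -0.08 in odor replicate 3 to 1.52 in vehicle replicate 1. Kcna2 was higher by 0.38 ± 0.13, a call that was lost in 7 of the 15 other settings run, with adjusted p reaching 0.112. Kcna5, which lies beside Kcna1 in the RefSeq annotation, was well above background at 12.84 ± 0.33 in GFP+ cells and 12.67 ± 0.35 in GFP- cells (SD, n = 8 each) and did not pass the threshold (0.16 ± 0.09, SE, adjusted p = 0.207). Kcna3, the delayed rectifier of lymphocytes, stayed under background in every group and differed by -0.17 ± 0.11 (adjusted p = 0.25).

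The Kcnh family, slowly gating channels of the ether-a-go-go group, supplied 6 of the 15 higher genes. Kcnh2, a channel known for cardiac repolarization, lay at 10.18, 10.88, 10.90 and 10.53 in GFP+ cells of odor pools, against 9.69, 10.25, 10.25 and 10.14 in GFP- cells. In vehicle pools its levels were 10.49, 10.75, 10.91 and 10.92 in GFP+ cells, against 9.92, 9.90, 10.34 and 10.18 in GFP- cells. Every pool had the higher level in GFP+ cells, by 0.39 to 0.84, and the mean was 0.61 ± 0.09 (SE, limma, adjusted p = 0.000234). Kcnh4 was higher by 0.52 ± 0.12 (adjusted p = 0.00605), Kcnh3 by 0.45 ± 0.11 and Kcnh7 by 0.39 ± 0.11, all above background. Kcnh7 missed the threshold in 2 of the 15 other settings run, with adjusted p reaching 0.0909. Kcnh5 (0.55 ± 0.11) and Kcnh6 (0.51 ± 0.13) also passed the threshold but lay under background in all 4 groups. Kcnh1 (-0.13 ± 0.12) and Kcnh8 (-0.07 ± 0.14), likewise under background, did not pass it.

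Kcnc4, a fast-inactivating channel opened at strongly depolarized potentials, was bright in both fractions and did not pass the threshold. It averaged 15.94 ± 0.13 in GFP+ cells and 15.71 ± 0.19 in GFP- cells (SD, n = 8 each), a difference of 0.23 ± 0.11 (SE, limma, adjusted p = 0.128). Kcns3, another silent modifier subunit, averaged 13.25 ± 0.08 in GFP+ cells and 13.01 ± 0.18 in GFP- cells (SD, n = 8 each) and likewise stayed on that side of it (0.24 ± 0.10, SE, adjusted p = 0.0714). Kcnq1, a slow delayed rectifier of heart and epithelia, passed narrowly, at 0.28 ± 0.09 (adjusted p = 0.0371), and lost its call in 10 of the 15 other settings run, with adjusted p reaching 0.193. Kcnd1, Kcnv1, Kcnc1 and Kcng3 also passed, by 0.28 to 0.44, and each lost its call in 7 or 8 of the 14 other settings run. All of these lay under background in all 4 groups.

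Accessory subunits moved both ways, with 4 of 17 higher and 1 lower. Kcnmb3 encodes an auxiliary subunit of the large-conductance calcium- and voltage-gated BK channel. It lay at 15.54, 15.17, 15.45 and 15.46 in GFP+ cells of odor pools, against 14.28, 13.96, 12.79 and 14.52 in GFP- cells. In vehicle pools its levels were 14.85, 14.92, 14.95 and 15.02 in GFP+ cells, against 13.10, 13.34, 12.99 and 13.56 in GFP- cells. The fractions did not overlap, and the lowest GFP- value was that of odor replicate 3, the sample that stood apart. The difference of 1.60 ± 0.17 (SE) is a fold of 3.04 (limma, adjusted p = 1.84e-05). The annotation places Kcnmb3 in overlap with Pik3ca, a kinase gene whose own probe differed by -0.09 ± 0.09 (adjusted p = 0.468). The related BK subunits Kcnmb2 (0.15 ± 0.10, adjusted p = 0.26) and Kcnmb4 (0.17 ± 0.11, adjusted p = 0.255) were above background and did not pass the threshold.

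The Kcnip genes encode calcium-binding proteins that regulate Kcnd channels, and the pair past the threshold went in opposite directions. Kcnip4 lay at 14.28, 14.28, 14.35 and 14.40 in GFP+ cells of odor pools, against 13.89, 14.12, 13.53 and 13.73 in GFP- cells. In vehicle pools it lay at 14.55, 14.16, 13.68 and 14.09 in GFP+ cells, against 12.91, 13.31, 13.47 and 13.72 in GFP- cells. GFP+ cells were the higher in 8 of 8 pools, with a mean difference of 0.64 ± 0.15 (SE, limma, adjusted p = 0.00842). Kcnip3, which also represses transcription through a DNA element and is known as DREAM, lay at 4.68, 4.65, 4.90 and 5.11 in GFP+ cells of odor pools, against 6.21, 5.84, 6.04 and 6.42 in GFP- cells. Its vehicle levels were 4.85, 4.81, 4.98 and 5.05 in GFP+ cells, against 5.68, 5.61, 6.14 and 5.56 in GFP- cells. The fractions did not overlap, and only the GFP- group of odor pools had a mean above background. The difference was -1.06 ± 0.10 (adjusted p = 6.83e-06). Of the Kcnd channels themselves, Kcnd1 was higher under background, and Kcnd2 (0.13 ± 0.10) and Kcnd3 (0.17 ± 0.09), also under background, did not pass the threshold.

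Kcnab2, a cytosolic beta subunit of Kcna channels, was higher in 8 of 8 pools by 0.20 to 0.67 (mean 0.44 ± 0.09, SE, limma, adjusted p = 0.00347). It averaged 15.89 ± 0.14 in GFP+ cells and 15.44 ± 0.19 in GFP- cells (SD, n = 8 each). Kcnrg, a soluble protein that hinders the assembly of voltage-gated channels, was higher by 0.84 ± 0.14 (adjusted p = 0.000766). Its locus overlaps that of Trim13 in the annotation, and the probe of Trim13 was higher by 0.53 ± 0.15 (adjusted p = 0.0168), and the sources used here do not say whether either probe reads the other transcript. The single-pass subunits Kcne2 (0.29 ± 0.13, adjusted p = 0.119) and Kcne3 (0.08 ± 0.14, adjusted p = 0.679), partners of Kcnq1 in epithelia, lay under background in every group.

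Promoters are shown for 4 of these accessory and Kcnh genes, which moved in GFP+ cells, so that their upstream sequence can be set beside their values. The window is the 250 bases before a start site listed in the promoter reference, on GRCm38.p6, strand -, printed 5′ to 3′. Capitals mark the core CCCNNGGG of the motif bound by EBF factors, the olfactory regulators also called Olf. Kcnmb3 lies at chr3:32491970-32492219, Kcnh4 at chr11:100759779-100760028, Kcnip4 at chr5:48599683-48599932 and Kcnip3 at chr2:127522095-127522344. The reference holds 2 promoters for Kcnip4 and 3 for Kcnip3, and the one shown for each is the one that holds the core. The windows of Kcnmb3, Kcnh4 and Kcnip4 lie inside the annotated genes, whose upstream ends are at 32502896, 100760115 and 49525122. Sequence before those ends was not searched.
Kcnmb3: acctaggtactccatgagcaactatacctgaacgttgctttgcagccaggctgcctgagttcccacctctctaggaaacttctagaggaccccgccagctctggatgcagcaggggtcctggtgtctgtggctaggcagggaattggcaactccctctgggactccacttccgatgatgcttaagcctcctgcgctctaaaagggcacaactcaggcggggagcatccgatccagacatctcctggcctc
Kcnh4: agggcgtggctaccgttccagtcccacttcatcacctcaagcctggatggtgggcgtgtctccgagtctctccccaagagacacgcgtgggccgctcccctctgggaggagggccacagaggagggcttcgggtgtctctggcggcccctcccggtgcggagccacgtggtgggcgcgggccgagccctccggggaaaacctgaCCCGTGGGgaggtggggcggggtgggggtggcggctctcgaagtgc
Kcnip4: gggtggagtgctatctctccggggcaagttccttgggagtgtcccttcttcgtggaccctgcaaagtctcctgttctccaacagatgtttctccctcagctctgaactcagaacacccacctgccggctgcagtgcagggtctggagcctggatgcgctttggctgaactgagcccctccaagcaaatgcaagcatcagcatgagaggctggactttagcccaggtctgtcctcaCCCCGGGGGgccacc
Kcnip3: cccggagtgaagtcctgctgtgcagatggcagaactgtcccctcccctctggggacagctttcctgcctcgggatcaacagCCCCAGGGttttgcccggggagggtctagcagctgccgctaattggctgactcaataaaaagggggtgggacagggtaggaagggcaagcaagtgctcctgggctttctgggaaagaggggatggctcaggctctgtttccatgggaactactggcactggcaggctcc

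In these windows the core starts 46 bases before the start site in Kcnh4, at 15 and 14 bases in 2 overlapping copies in Kcnip4 and at 169 bases in Kcnip3, the gene that was lower, while Kcnmb3 holds none. The other Kcnip4 promoter, both other Kcnip3 promoters and the promoters of the lower genes Kcnk1 and Kcnn4 hold none either. The core reads the same on both strands. Of the 90 genes, 69 matched by gene identifier to at least 1 of 94 promoters in the promoter reference. The core was found in 13 of these promoters, 13.8%, against 11.8% of all 32851 promoters. Counted by gene instead of by promoter, it was present in 13 of the 69 genes, in 4 of 16 higher and in 1 of 6 lower genes. No share by gene was counted for all genes, so these counts cannot be set against the 11.8%. The full palindromic EBF site, which is the core with a T before it and an A after it, occurred in 0 of 94, against 0.779% of all promoters, and the cyclic AMP response element TGACGTCA in 0 of 94, against 1.55%.

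**Figure D3:**
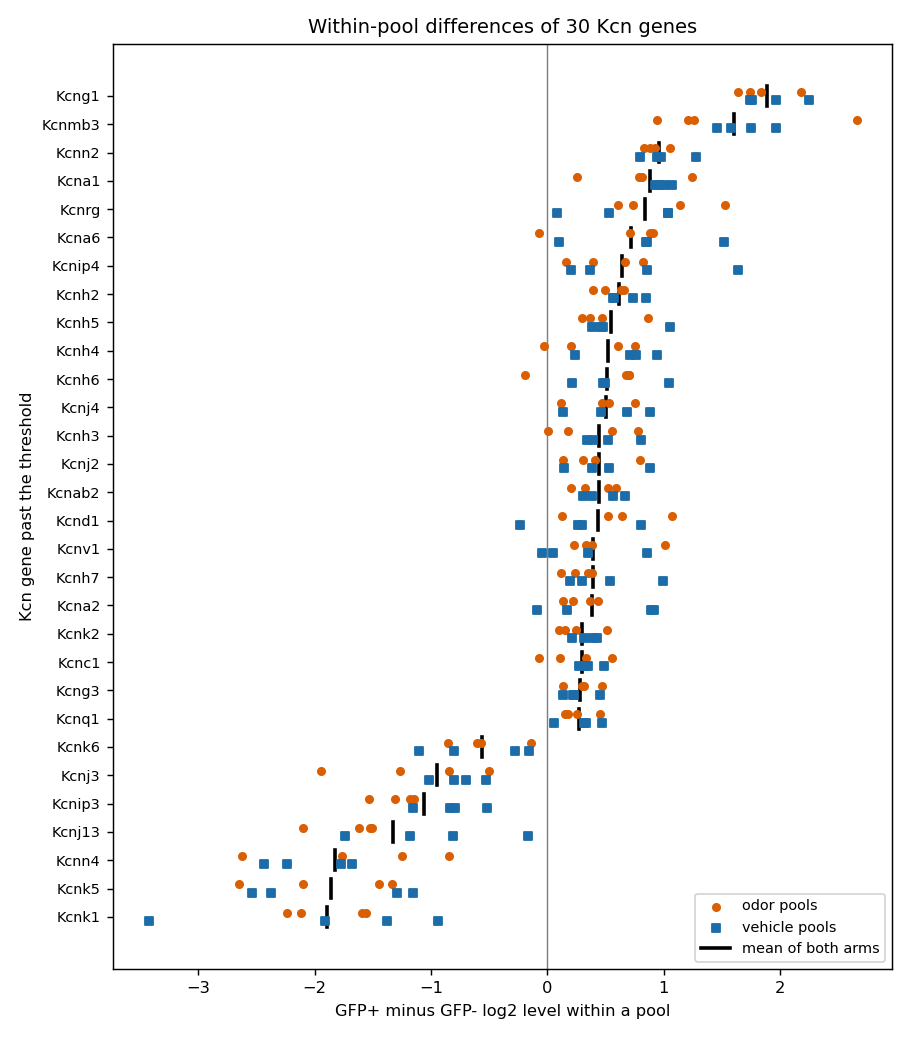
GFP+ minus GFP- log2 level within each pool for the 30 potassium channel genes past the threshold, with odor pools as circles, vehicle pools as squares and the mean of both arms as a black bar. The 7 lower genes are below 0 in every pool, and Kcng1, Kcnmb3, Kcnn2 and Kcna1 are above 0 in every pool.

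Calcium-activated alpha subunits contributed 1 gene in each direction. Kcnn2, a small-conductance channel that contributes to afterhyperpolarization, lay at 13.04, 13.21, 12.89 and 12.98 in GFP+ cells of odor pools, against 11.98, 12.33, 11.97 and 12.15 in GFP- cells. In vehicle pools it lay at 13.26, 13.21, 13.50 and 13.16 in GFP+ cells, against 11.99, 12.23, 12.71 and 12.22 in GFP- cells. All GFP+ samples exceeded all GFP- samples, by a mean of 0.96 ± 0.09 (SE, limma, adjusted p = 7.23e-06), a fold of 1.94. Its relative Kcnn1, at 11.86 ± 0.25 in GFP+ cells and 11.76 ± 0.12 in GFP- cells (SD, n = 8 each), did not pass the threshold (0.10 ± 0.11, SE, adjusted p = 0.505).

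Kcnn4, an intermediate-conductance channel of blood cells and secretory epithelia, went the other way. It lay at 3.95, 4.13, 4.12 and 4.60 in GFP+ cells of odor pools, against 6.58, 5.38, 5.89 and 5.45 in GFP- cells. In vehicle pools its levels were 3.79, 4.22, 4.16 and 3.79 in GFP+ cells, against 6.23, 5.89, 5.94 and 6.03 in GFP- cells. The fractions did not overlap, and the means of all 4 groups lay under background. The adjusted p of the difference of -1.83 ± 0.18 (SE) was 8.47e-06.

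Inward rectifiers had a median difference of 0.04, with 2 of 15 higher and 2 lower. Kcnj2, a strong inward rectifier that holds the resting potential, was higher by 0.45 ± 0.11 and averaged 10.93 ± 0.21 in GFP+ cells and 10.48 ± 0.32 in GFP- cells (SD, n = 8 each). Kcnj4, of the same kind, passed at 0.51 ± 0.11 under background. Kcnj13, a rectifier of transporting epithelia, lay at 4.79, 5.02, 5.57 and 4.77 in GFP+ cells of odor pools, against 6.41, 6.54, 7.08 and 6.86 in GFP- cells. In vehicle pools it lay at 5.53, 5.20, 5.04 and 5.86 in GFP+ cells, against 7.27, 6.38, 5.84 and 6.03 in GFP- cells. Each GFP+ sample was below the GFP- sample of its pool, with group means above background only in GFP- cells, and the difference was -1.33 ± 0.15 (SE, limma, adjusted p = 4.19e-05). Kcnj13 lies within Gigyf2 in the annotation, and the probe of Gigyf2 differed by 0.08 ± 0.10 (adjusted p = 0.544). Kcnj3, a subunit of G protein-gated channels, fell by 0.95 ± 0.14 on the log2 scale (adjusted p = 0.000382), with all samples under background and no overlap of the fractions. Kcnj10 (0.22 ± 0.16) and Kcnj16 (0.01 ± 0.16), which carry potassium in glia and epithelia, were under background and did not pass the threshold.

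Two-pore-domain channels held 3 of the 7 lower genes and 1 higher gene out of 14. Kcnk1, a weakly conducting leak channel that also occurs in epithelia, lay at 6.37, 5.86, 5.93 and 6.11 in GFP+ cells of odor pools, against 8.61, 7.98, 7.49 and 7.71 in GFP- cells. In vehicle pools it lay at 6.10, 6.91, 6.16 and 5.91 in GFP+ cells, against 9.52, 7.85, 7.54 and 7.82 in GFP- cells. The fractions did not overlap, GFP+ cells lay close to background, and vehicle replicate 1 had the highest GFP- level. The level was 3.72-fold lower in GFP+ cells (limma, adjusted p = 5.04e-05).

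Kcnk5, an alkaline-activated channel of epithelia, lay at 2.81, 3.50, 3.44 and 3.39 in GFP+ cells of odor pools, against 5.46, 4.95, 4.78 and 5.49 in GFP- cells. In vehicle pools its levels were 3.87, 4.16, 2.71 and 4.24 in GFP+ cells, against 6.41, 5.45, 5.08 and 5.40 in GFP- cells. The fractions did not overlap, and the 4 group means were under background (limma, adjusted p = 1.52e-05). Kcnk16, the neighbour of Kcnk5, differed by 0.22 ± 0.15 (SE) and did not pass the threshold. Kcnk6 fell by 0.56 ± 0.13 on the log2 scale (adjusted p = 0.0058), and the mechanosensitive Kcnk2 was higher by 0.29 ± 0.09, a call lost in 5 of the 14 other settings run, both under background. Kcnk10, the close relative of Kcnk2, was bright in both fractions, at 14.29 ± 0.21 in GFP+ cells and 14.47 ± 0.21 in GFP- cells (SD, n = 8 each), and did not pass the threshold (-0.18 ± 0.09, SE, adjusted p = 0.161).

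Several lists of markers of other cells were also lower in GFP+ cells, and 3 of them are given here. Not all lists were lower, since 4 of 5 ciliated-cell genes were higher. Stromal and horizontal basal cells had 1 lower gene each. With 1 of 5 and 0 of 6 of their genes above background in each group, a decrease could be missed in these lists. The summed signal of the 10 neutrophil genes, given as the log2 of their sum, ran from 8.61 to 10.09 in GFP+ cells of odor pools, against 18.07 to 19.37 in GFP- cells. In vehicle pools it ran from 8.64 to 9.73 in GFP+ cells, against 17.98 to 19.45 in GFP- cells. In GFP+ cells 2 of these 10 genes were above background in odor pools and 3 in vehicle pools, and all 10 were above it in GFP- cells. For the 10 sustentacular genes the sums were 14.78 to 15.18 in GFP+ cells, against 16.30 to 16.47 in GFP- cells of odor pools, and 14.48 to 15.29 in GFP+ cells, against 16.25 to 16.94 in GFP- cells of vehicle pools. The 10 microvillar and brush-cell genes summed to 8.81 to 9.28 in GFP+ cells, against 12.54 to 13.64 in GFP- cells of odor pools, and to 8.81 to 9.39 in GFP+ cells, against 12.47 to 14.43 in GFP- cells of vehicle pools. Of the 7 lower potassium channel genes, 6 had GFP+ means under background in both arms, and 4 were under background in all 4 groups. Of the 23 higher genes, 9 had GFP- means under background in both arms, and 8 were under background in all 4 groups. The part of other cell types in these differences was not tested.

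Taken arm by arm, 8 potassium channel genes were higher and 6 lower in GFP+ cells of odor pools, 15.6% beside 18.6% of all genes (7.96% higher and 10.6% lower). In vehicle pools 14 were higher and 7 lower, 23.3% beside 19.7% of all genes (8.86% higher and 10.8% lower). Higher in both arms were 7 genes, namely Kcng1, Kcnmb3, Kcnn2, Kcna1, Kcnrg, Kcnh2 and Kcnh5. Of these, Kcnh5 lost its odor-arm call in 10 of the 14 other settings run (adjusted p up to 0.196) and its vehicle-arm call in 2, Kcnrg lost its vehicle-arm call in 4 of 15 (up to 0.155), and Kcnh2 its odor-arm call in 1 of 15 (up to 0.0521). Lower in both arms were 6 genes, namely Kcnk1, Kcnk5, Kcnn4, Kcnj13, Kcnip3 and Kcnj3, of which Kcnj3 lost its vehicle-arm call in 4 of 14 (up to 0.0967). No gene was called in opposite directions, and 69 of 90 had the same sign in both arms. The counts of higher genes were sensitive to single pools and to scaling. Without vehicle replicate 2 the count in vehicle pools was 5, without vehicle replicate 1 it was 6 and without vehicle replicate 4 it was 8. Centred on array medians, the count was 38 in odor pools, with 78.5% of all calls higher instead of 42.9%, and 25 in vehicle pools, with 67.6% higher instead of 45.1%.

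Over the 90 genes, 52.9% of the variance lay on a first component that parted GFP+ samples, at -3.39 to -1.89, from GFP- samples, at 1.93 to 4.57. The ranges of GFP+ and GFP- samples did not overlap for 3 genes that were above and 5 that were below, 8.89% of the 90 beside 11.3% of all genes.

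The next question is whether the odor changed potassium channel transcripts relative to clean air. At the threshold, 0 of the 90 genes passed in GFP+ cells, in GFP- cells or in the difference between the GFP+ minus GFP- differences of odor and vehicle pools (limma, Benjamini-Hochberg over all genes). Among all genes the shares past the threshold were 0% in GFP+ cells, 0.00513% in GFP- cells, which is 1 gene, and 0% in the difference. At an unadjusted p under 0.05 there were 6 potassium channel genes in GFP+ cells, 7 in GFP- cells and 7 in the difference, beside 1070, 697 and 654 of all genes. The 95% intervals, not adjusted for the number of genes, are given for genes above background in all 4 groups. For the 23 such genes other than Kcng1, all intervals of the odor minus vehicle difference lay between -0.76 and 0.75 in GFP+ cells. They lay between -1.32 and 1.37 in GFP- cells and between -0.95 and 1.03 in the difference of differences. Those of Kcng1 ran from 0.59 to 1.96 in GFP+ cells and from 0.73 to 1.99 in GFP- cells.

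**Figure D4:**
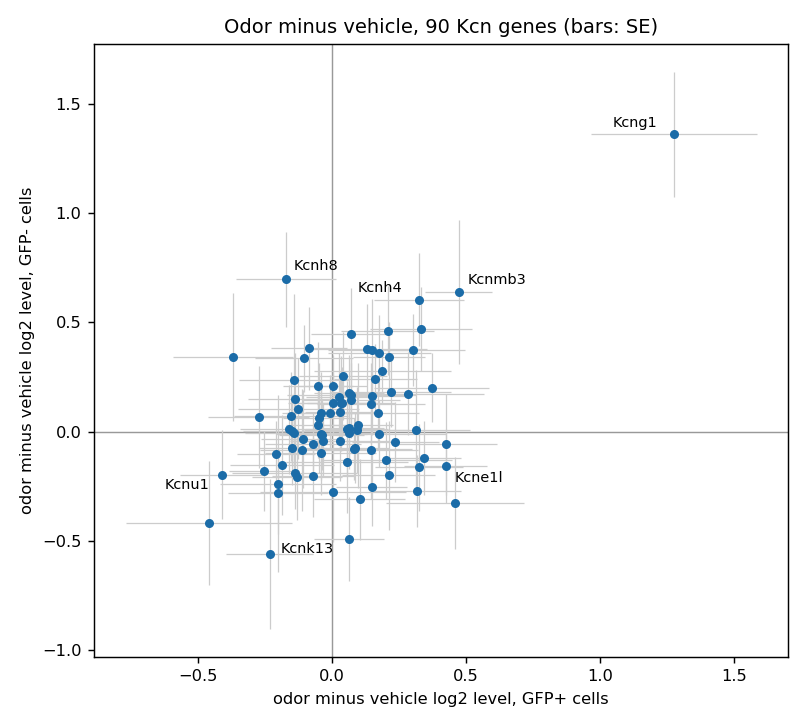
Odor minus vehicle difference in log2 level of the 90 potassium channel genes in GFP+ cells (horizontal axis) and GFP- cells (vertical axis), with bars for the SE of each. Most genes lie within 0.5 of 0 on both axes, and Kcng1 stands apart at 1.28 and 1.36, although no gene of the 90 passed the threshold after adjustment.

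Genes are named here for having the lowest p-values of each comparison, so their unadjusted p-values describe that choice. The same holds where the arms of a named gene did not overlap. The share of all genes without overlap of the arms was not counted. Kcng1 had the lowest of the 90 genes in both fractions. In GFP+ cells its levels were 11.90, 10.61, 11.44 and 11.95 after odor, against 10.70, 10.48, 9.82 and 9.80 after vehicle. In GFP- cells they were 10.16, 8.98, 9.26 and 10.12 after odor, against 8.74, 8.23, 8.06 and 8.05 after vehicle. The arms overlapped in GFP+ cells through odor replicate 2, the lowest odor pool, and did not overlap in GFP- cells. The difference was 1.28 ± 0.31 (SE, limma, unadjusted p = 0.00177, adjusted p = 0.891) in GFP+ cells, with rank 21 by p among the 19505 genes. In GFP- cells it was 1.36 ± 0.29 (unadjusted p = 0.000642, adjusted p = 1), with rank 3. In GFP+ cells the odor pool was above the vehicle pool of the same number for each of the 4 numbers. The labels do not say that the numbers pair pools. In GFP- cells any pairing gives that outcome, because the arms did not overlap. Both fractions of a pool come from the same mice, so the comparisons in GFP+ and GFP- cells are not independent of each other. Averaged over both fractions of each pool, an alternative added after seeing the data, Kcng1 had levels of 11.03, 9.80, 10.35 and 11.04 in odor pools, against 9.72, 9.36, 8.94 and 8.92 in vehicle pools. That difference was 1.32 ± 0.28 (unadjusted p = 0.000669, adjusted p = 0.989), with rank 10. The GFP+ minus GFP- difference itself differed between odor and vehicle pools by only -0.08 ± 0.20, with a 95% interval from -0.53 to 0.36.

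Kcnmb3 came next in GFP+ cells. Its levels there were 15.54, 15.17, 15.45 and 15.46 after odor, against 14.85, 14.92, 14.95 and 15.02 after vehicle. The arms did not overlap, with a difference of 0.47 ± 0.13 (SE, limma, unadjusted p = 0.00346, adjusted p = 0.891) and rank 52. In GFP- cells the difference was 0.64 ± 0.33 (SE, limma, unadjusted p = 0.0785) and the arms overlapped through odor replicate 3.

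Kcnh4 and Kcnh8 followed in GFP- cells. Kcnh4 lay at 14.63, 14.89, 14.16 and 14.07 after odor, against 13.83, 13.54, 13.84 and 14.12 after vehicle, a difference of 0.60 ± 0.21 (SE, limma, unadjusted p = 0.017, adjusted p = 1). Kcnh8 lay at 5.49, 4.95, 5.48 and 5.68 after odor, against 4.85, 4.71, 4.23 and 5.02 after vehicle, a difference of 0.70 ± 0.22 (unadjusted p = 0.00837, adjusted p = 1). Both pairs of arms overlapped by 1 sample, and Kcnh8 was under background in every group. For Kcnh8 the GFP+ minus GFP- difference was -0.17, -0.15, -0.47 and -1.21 in odor pools, against 0.22, 0.63, 0.72 and -0.11 in vehicle pools. The odor pools lay below the vehicle pools by a narrow margin, -0.15 against -0.11 at the closest. The contrast of -0.87 ± 0.28, for which the gene was chosen, had the lowest unadjusted p of the 90 genes in that comparison (0.0105, adjusted p = 1). Other genes named by their rank, all under background, were Kcne1l in GFP+ cells (0.42 ± 0.15, unadjusted p = 0.0192), and Kcnk13 (0.55 ± 0.22, unadjusted p = 0.0287) and Kcnq5 (0.59 ± 0.24, unadjusted p = 0.0301) in the contrast of differences. Kcnk13, a channel of microglia and macrophages, did not pass the threshold between the fractions (0.09 ± 0.11, adjusted p = 0.539).

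**Figure D5:**
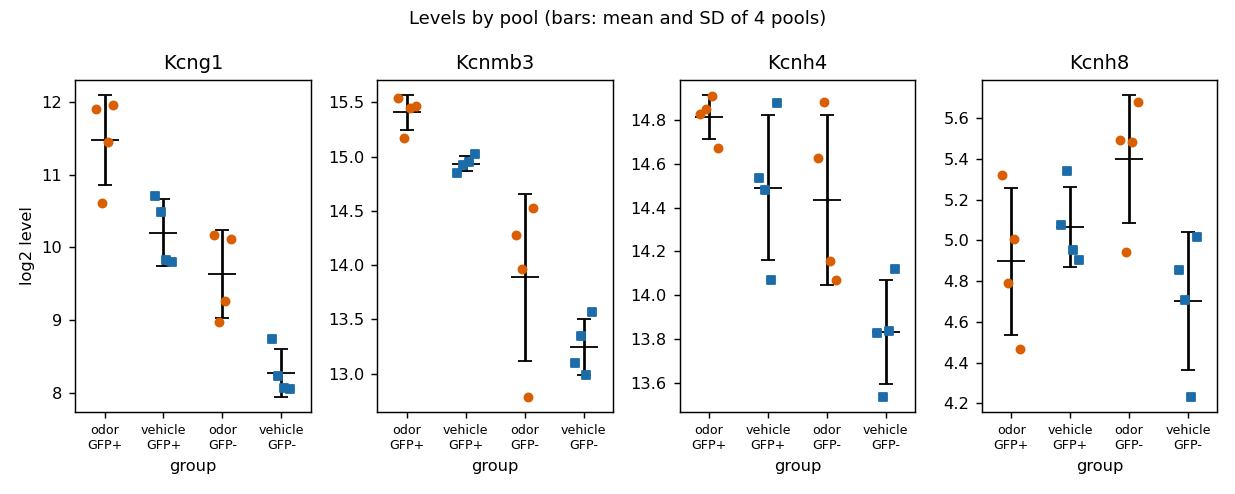
Log2 level of Kcng1, Kcnmb3, Kcnh4 and Kcnh8 in each pool, with odor pools as circles and vehicle pools as squares, shown for GFP+ cells and then GFP- cells, and bars for the mean and SD of 4 pools. Odor pools of Kcng1 lie above all vehicle pools in GFP- cells and overlap them in GFP+ cells at 10.61.

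The pathway around the channels was described with a list of 31 other potassium and excitability genes, of which 26 were measured. Of these, 5 were higher in GFP+ cells, 3 lower and 18 did not pass the threshold, so that 30.8% were called, near the 32.2% of all genes, with a median of 0.13 beside 0.12. Higher were Amigo1 (0.57), a partner of Kcnb channels, the hyperpolarization-activated cation channels Hcn4 (0.55) and Hcn2 (0.37), the endolysosomal potassium channel Tmem175 (0.51) and Ano2 (0.41), the chloride channel of the transduction current. Lower were the sodium pump beta subunits Atp1b3 (-0.73) and Atp1b2 (-0.61) and Lrrc26 (-0.39), a BK-channel accessory protein of secretory epithelia, with Atp1b2 and Lrrc26 under background in all 4 groups.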

How the data were processed

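The authors deposited 1 value per probe and sample for 16 Clariom S arrays, made with Affymetrix Expression Console per the submitters' processing notes. The sources used here do not give its version, background correction or normalization. The deposited values were taken as log2 from their range. Of 28846 probes, 19572 had 1 gene symbol, and where a gene had several, the probe with the highest mean was used. Samples were paired by the pool code in their titles, and of the vehicle pools that both carry the number 3, the later was numbered 4 here.

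Limma 3.58.1 in R 4.3.3 was fitted to the 8 within-pool differences, and to the 8 GFP+ and 8 GFP- samples for odor against vehicle, over 19505 genes. P-values were two-sided and measure the spread between pools of 3 mice. The fits were tested on simulated data. The members and lists were chosen with earlier results of these data known. The text names up to 12 of the largest differences past the threshold in each direction, which for lower genes were all 7, the 3 lowest p-values of each odor comparison, the 8 genes with the highest mean signal and 8 genes of other cell types, and other members to show their subfamily. Precision is limited by 4 pools per arm. Names and neighbours followed GRCm38.p6. Alternatives covered scaling, a filter on low values, variance moderation, probe choice, single pools and blocking. Deviations of same-numbered odor and vehicle pools from their group means had correlations of 0.114 to 0.242 in GFP+ samples. In GFP- samples these ran from 0.066 to 0.332. Pools of different numbers were not compared, so whether the numbers pair pools was not tested.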

Additional observations from a re-analysis of the deposited data

Results flagged for a closer look

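Of 136 checks of a group of 4 pools for a single distant value, over 34 named genes, 5 were positive, and chance gives about 1 in 20. Kcnh6 lay at 4.62 in GFP+ cells of odor replicate 3, against 5.54 to 5.70 in the other pools of that group. Kcnh6 also lay at 4.82 in GFP- cells of vehicle replicate 4, against 4.55 to 4.59. Kcnk1 lay at 9.52 in GFP- cells of vehicle replicate 1, against 7.54 to 7.85. Kcnk5 lay at 2.81 in GFP+ cells of odor replicate 1, against 3.39 to 3.50. Kcnq1 lay at 10.24 in GFP+ cells of odor replicate 3, against 10.60 to 10.66.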

How the results depend on the processing

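With each array centred on its median, the higher genes numbered 57 over both arms, 38 in odor pools and 25 in vehicle pools. With the filter on low values, which kept 11498 genes and so tested fewer potassium channel genes, the lower genes numbered 3 over both arms, 3 in odor pools and 3 in vehicle pools. Leaving out 1 pool at a time gave 17 to 21 higher and 7 lower genes over both arms, 6 to 10 higher and 6 to 7 lower in odor pools, and 5 to 16 higher and 5 to 7 lower in vehicle pools. With no replicate block, treating the 16 samples as independent, the counts were 22 higher and 7 lower over both arms, 8 and 6 in odor pools, and 11 and 8 in vehicle pools. The replicate number as a block left 0 potassium channel genes past the threshold in the 3 odor comparisons. Kcng1 then had adjusted p = 0.757 in GFP+ cells and 0.932 in GFP- cells (limma). Differences near 0 changed sign. Kcnk10 was at 0.007 and Kcna3 at 0.0191 after median centring. Kcnj16 was at -0.0745 after quantile normalization, at -0.213 without the pools numbered 3, and from -0.1435 to 0.0839 with single pools left out. Averaging both fractions of a pool, chosen after seeing the data, gave Kcnh8 0.263 and Kcne1l 0.134. The causes were not tested. Of the 30 genes past the threshold over both arms, 22 kept their call over both arms in all settings that tested them, and Kcnd1, Kcnv1, Kcnh7, Kcna2, Kcnk2, Kcnc1, Kcng3 and Kcnq1 did not. Signal near background limits the 63 genes below it.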
